A study of Caenorhabditis elegans with 36 samples.

Results

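The earliest comparison of a time course in Caenorhabditis elegans set whole N2 hermaphrodites given 100 nM rotenone against worms given 0.1 % DMSO, both sampled at 6 hours. N2 is the wild-type laboratory strain, so no allele or transgene separates the groups. The members are the 6 libraries that the labels place in these groups, 3 with rotenone and 3 with DMSO, of 36 libraries in all. The other 30 libraries hold rotenone, DMSO and, at 1 and 5 days, H2O worms of later times. The title of the series dates the times from treatment, whereas the sample labels give 6 hours as an age, and the larval or adult stage is not stated. What was measured is the raw read count of each miRNA hairpin in small RNA libraries, and 193 of 250 hairpins had enough counts for the test.

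Rotenone blocks complex I of the mitochondrial respiratory chain, which lowers ATP production and raises reactive oxygen species, and it is widely used in worms to model mitochondrial stress. A miRNA is a short RNA cut from a hairpin precursor. Loaded into an Argonaute protein, it pairs through its 5′ seed with messenger RNAs and lowers their translation or stability. In worms, families that share a seed time larval development (lin-4 and let-7), build the embryo (mir-35 and mir-51) or act in adult stress and lifespan (mir-34, mir-71, mir-238).

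The rotenone libraries were the deeper ones, with 11840458 to 14960062 counts against 7450979 to 9939500 with DMSO, and depth therefore moved with treatment. The count of hairpins with at least 1 read was 212 to 218 with rotenone and 207 to 212 with DMSO. The 10 most abundant hairpins took 63.7% to 66.0% and 64.4% to 66.4% of counts. All rotenone libraries were sequenced on lane 1 and all DMSO libraries on lane 8, so treatment and lane cannot be told apart within 6 hours. Whether replicates are separate cultures is not stated in the labels, so the p-values measure the spread between libraries only, and this spread may be technical.

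Rotenone replicate 2 stood apart. Over the 90 hairpins with at least 100 CPM (reads relative to the size of the library), its root mean square log2 difference was 0.228 from rotenone replicate 1 and 0.212 from replicate 3. Rotenone replicates 1 and 3 differed by 0.117 and the DMSO pairs by 0.105 to 0.151. For 45 of the 90 hairpins it was the rotenone library farthest from the others of its group. Calls that were lost without it are given below with their value without it.

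Most hairpins that passed the test at 6 hours were lower with rotenone, and by modest amounts. By the quasi-likelihood test of edgeR, with p adjusted by Benjamini and Hochberg's method over all hairpins, 23 of 193 (11.9%) passed an adjusted p of 0.05, of which 2 (1.04%) were higher and 21 (10.9%) lower with rotenone. At an unadjusted p under 0.05 there were 42. Values after ± are standard errors of log2 fold changes between 3 and 3 libraries unless SD is written. Their spread is estimated from the fit of all 36 libraries in 12 groups, not from the 6 libraries alone. A difference from later times also uses the rotenone and DMSO libraries of those times. The fall took 11 of the 21 below 0.8 of the DMSO level, and the other 10 fell by less. Among all 193 hairpins 63 had a positive and 130 a negative log2 fold change, with a median of -0.05. The groups did not overlap for 42 hairpins (21.8%), 10 higher (5.18%) and 32 lower (16.6%), and for 18 of the 23 that passed. With total counts 21 were higher and 18 lower without overlap.

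The number that passed depended on how the libraries were scaled and on which of them entered the fit. With the size factors of DESeq2 in place of TMM 13 passed, 3 higher and 10 lower, around a median over all hairpins of -0.02. With plain total counts 10 passed, 5 higher and 5 lower, around a median of 0.03. Each of the 23 kept its sign under both, and 7 passed under all 3 scalings: mir-41, mir-1829b, mir-74, mir-2209a and mir-243 were lower, and mir-238 and mir-59 higher. Leaving out DMSO replicate 1, 2 or 3 left 13, 10 and 13 calls, and leaving out rotenone replicate 1, 2 or 3 left 12, 17 and 17. In all of these mir-41, mir-1829b, mir-1829c, mir-74, mir-2209a, mir-243 and mir-355 passed, and the other 16 lost their call without at least 1 library. A fit of the 6 libraries alone, with 4 residual degrees of freedom, called 0 of 174 hairpins in edgeR's test, with 24 at an unadjusted p under 0.05. Each group of the series ran on 1 lane, so a lane term cannot be fitted beside 1 mean for each group. The fit with a lane term therefore used a simpler model, and changes under it cannot be ascribed to lane alone. In it an additive lane term, estimated from all 36 libraries, left 3 calls, of which mir-41 (log2 -1.35, adjusted p = 0.0484) was the only one shared with the 23. The others were mir-234 (2.41) and mir-1022 (1.40), and mir-72, mir-245, mir-59 and mir-255 changed sign (0.048, 0.46, -0.080 and 0.24).

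**Figure D1:**
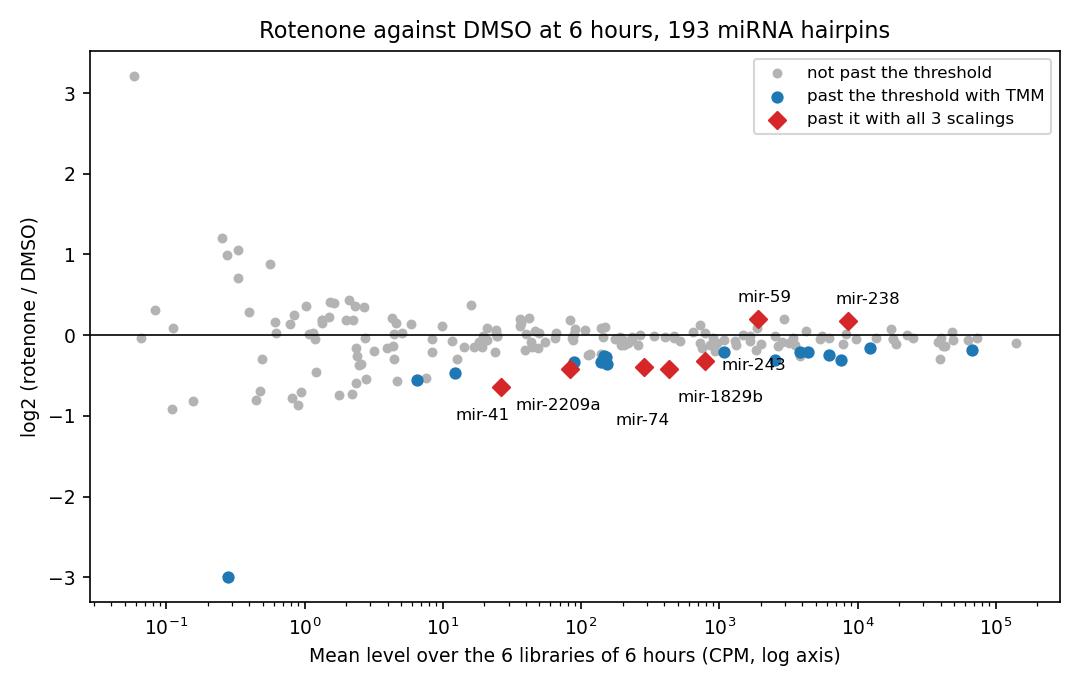
Each point is 1 of the 193 hairpins tested, with its mean level over the 6 libraries (CPM, log axis) across and its log2 ratio of rotenone to DMSO up the side; blue points passed the test with TMM scaling and red diamonds with all 3 scalings. Points above 100 CPM lie close to the zero line, 5 of the 7 red diamonds lie below it, and the blue point near -3 is the rare mir-8190.

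The mir-35 family, closely related hairpins transcribed in oocytes and embryos and needed for embryonic development, is the group with the most calls. Of its 8 members, all tested, 5 passed the test and all 5 were lower, beside 10.9% of all hairpins (mir-35, mir-38, mir-39, mir-40 and mir-41). The family's median log2 fold change was -0.29, beside -0.05 over all hairpins. How reads were divided among such similar hairpins is not stated, and the members may not be separate measurements.

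The level of mir-41 was 30.1, 31.1 and 35.6 CPM in the DMSO libraries and 23.0, 18.1 and 21.0 CPM in the rotenone libraries, from 244 to 335 reads each. Every rotenone library lay below every DMSO library, and the fall to 0.64 of the DMSO level was the largest among hairpins above 10 CPM that passed (log2 -0.64 ± 0.10, adjusted p = 1.73e-05). Without rotenone replicate 2 the log2 fold change was -0.56 (adjusted p = 0.000792).

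The other members rested on rotenone replicate 2. mir-35, after which the family is named, stood at 7759, 8356 and 9337 CPM with DMSO and at 7394, 4837 and 8256 CPM with rotenone (log2 -0.31 ± 0.10, adjusted p = 0.0441). mir-40 had 2734, 2689 and 2948 CPM with DMSO and 2415, 1643 and 2684 CPM with rotenone (log2 -0.31 ± 0.10, adjusted p = 0.046). In both hairpins replicate 2 is the low library, and the groups overlapped for mir-35 and nearly touched for mir-40. mir-38 had 153, 179 and 190 CPM against 143, 106 and 159 CPM (log2 -0.36 ± 0.11, adjusted p = 0.0428). mir-39 had 6297, 6938 and 6977 CPM against 5997, 4724 and 6370 CPM (log2 -0.24 ± 0.079, adjusted p = 0.0431). Both again overlapped between groups, with replicate 2 lowest. Without that library mir-41 alone of the family passed, the log2 fold changes of mir-35, mir-40, mir-38 and mir-39 were -0.12, -0.13, -0.21 and -0.13, and the family's median was -0.12 beside -0.09 over all hairpins. Under either other scaling, too, mir-41 was the member that passed. mir-35, mir-40, mir-38 and mir-39 also lost their calls without DMSO replicate 2 or 3 (adjusted p = 0.0779 to 0.223). mir-36 (-0.19 ± 0.091), mir-37 (-0.26 ± 0.12) and mir-42 (-0.19 ± 0.11) did not pass.

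As a share of all counts the family took 2.40%, 2.46% and 2.51% with DMSO and 2.42%, 1.56% and 2.51% with rotenone. On that scale rotenone replicates 1 and 3 lay within the DMSO range and replicate 2 far below it. The 7 hairpins mir-35 to mir-41 are neighbours within 10 kb in the RefSeq annotation of assembly WBcel235, used here for order only, and are known to be cut from a shared transcript. Within it mir-41 gave 11.0, 11.6 and 12.1 reads per 1000 reads of mir-40 with DMSO, and 9.54, 11.0 and 7.82 with rotenone, a ratio that needs no scaling between libraries. Rotenone replicate 2 reached the lowest DMSO library on this measure, and replicates 1 and 3 lay below it.

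**Figure D2:**
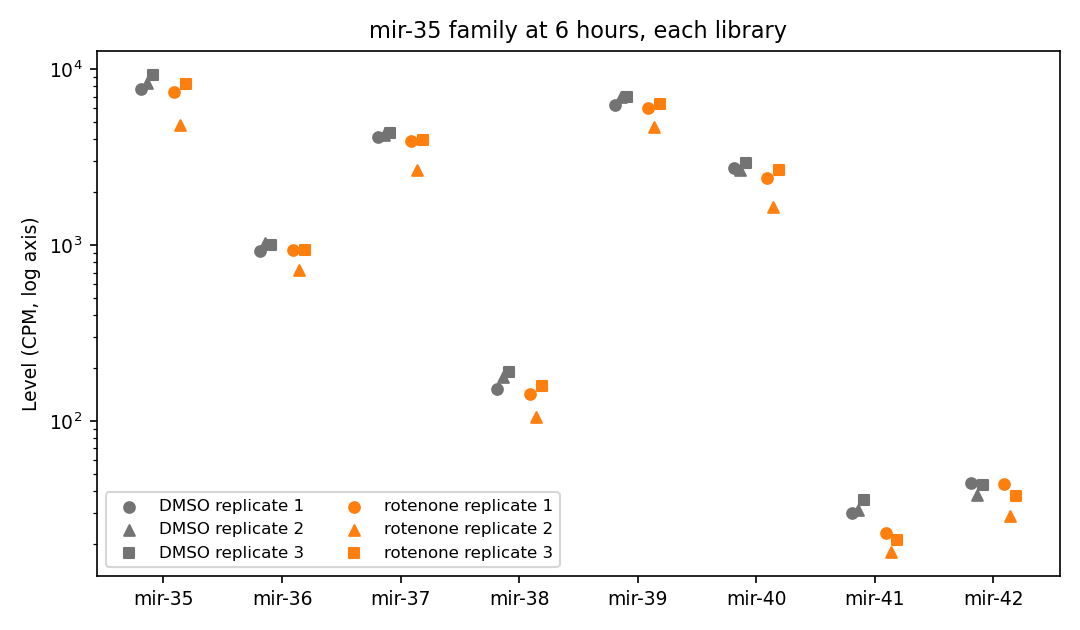
Level of each mir-35 family hairpin (CPM, log axis) in each of the 6 libraries of 6 hours, DMSO in grey and rotenone in orange, with 1 symbol per replicate number. The orange triangle, rotenone replicate 2, is the lowest library for all 8 hairpins, and mir-41 also has rotenone replicates 1 and 3 (23.0 and 21.0 CPM) below all DMSO libraries.

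Among hairpins that were named late in the worm's miRNA catalogue, mir-1829b and mir-2209a fell under all 3 scalings and with each library of 6 hours left out. mir-1829b stood at 472, 499 and 511 CPM with DMSO and at 331, 415 and 362 CPM with rotenone. The groups were well separated, and the level fell to 0.748 (log2 -0.42 ± 0.064, adjusted p = 1.73e-05). mir-2209a had 83.6, 95.8 and 104 CPM against 71.0, 65.7 and 76.0 CPM (log2 -0.42 ± 0.084, adjusted p = 0.000847), again without overlap. mir-1829c had 162, 148 and 167 CPM against 130, 138 and 130 CPM (log2 -0.26 ± 0.057, adjusted p = 0.00142). It passed with size factors and with each library left out, but not with total counts (log2 -0.18, adjusted p = 0.0818).

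In the list of mir-1829, mir-2208, mir-2209, mir-2210 and mir-2211 hairpins 7 of 10 were tested and 3 of them passed, all lower, beside 10.9% of all hairpins, with a median of -0.26. Their summed level was 755 to 822 CPM with DMSO and 564 to 657 CPM with rotenone. The 4 that did not pass were mir-1829a (-0.20 ± 0.10), mir-2208a (0.70 ± 0.92), mir-2208b (-0.54 ± 0.29) and mir-2210 (-0.07 ± 0.16).

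The mir-72 family (mir-72, mir-73 and mir-74) is the worm form of miR-31, and 2 of its 3 members fell, beside 10.9% of all hairpins, though mir-72 passed under TMM alone of the 3 scalings. mir-74 stood at 313, 321 and 341 CPM with DMSO and at 255, 225 and 265 CPM with rotenone, groups that did not overlap, and it passed under all 3 scalings and with each library of 6 hours left out (log2 -0.39 ± 0.065, adjusted p = 4.02e-05). mir-72, the third most abundant hairpin of these libraries, had 71217, 71133 and 70909 CPM with DMSO and 61697, 61368 and 65419 CPM with rotenone. The DMSO libraries were nearly equal, and the level fell to 0.884 (log2 -0.18 ± 0.05, adjusted p = 0.0214). This fall did not pass with size factors (adjusted p = 0.0748) or total counts (0.244), nor without rotenone replicate 2 (-0.17, adjusted p = 0.0543). Nor did mir-72 pass without DMSO replicate 1 or 2 or rotenone replicate 1 (adjusted p = 0.0532, 0.0689 and 0.0713). mir-73 did not pass (0.05 ± 0.095), and it lies within 10 kb of mir-74 in the annotation. Per 1000 reads of mir-73, mir-74 gave 84.4, 80.4 and 72.7 reads with DMSO and 67.1, 49.0 and 59.4 with rotenone, again without overlap.

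mir-243 is known for being loaded into RDE-1, the Argonaute of RNA interference, rather than the usual miRNA Argonautes. Its level was 870, 866 and 900 CPM with DMSO and 697, 674 and 736 CPM with rotenone. The gap between the groups was wider than the spread inside either, and the level fell to 0.799 (log2 -0.32 ± 0.068, adjusted p = 0.00118). mir-355, which links p38 MAPK and insulin signalling in the worm's immune defence, had 101, 100 and 99.0 CPM with DMSO and 86.9, 65.5 and 85.7 CPM with rotenone. Its DMSO libraries were nearly equal and rotenone replicate 2 was the low one (log2 -0.33 ± 0.073, adjusted p = 0.00142). Without that library mir-355 still passed (log2 -0.22, adjusted p = 0.0295), but with total counts it did not (-0.25, adjusted p = 0.0913).

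In the mir-51 family, miR-100 type hairpins needed to anchor the embryonic pharynx, 2 of 6 members passed and both were lower, beside 10.9% of all hairpins, with a family median of -0.14. mir-54 had 4514, 4762 and 4926 CPM against 3990, 4274 and 4027 CPM (log2 -0.21 ± 0.056, adjusted p = 0.0169). mir-51 had 1174, 1141 and 1157 CPM against 985, 1039 and 979 CPM (log2 -0.21 ± 0.071, adjusted p = 0.046). Neither overlapped between groups. With size factors mir-54 passed (adjusted p = 0.027) and mir-51 did not (0.118), and with total counts neither did (0.194 and 0.441). mir-54 did not pass without DMSO replicate 2 or 3 or rotenone replicate 1 (adjusted p = 0.0557, 0.0819 and 0.0613). With 1 library left out, mir-51 passed only without rotenone replicate 2 (adjusted p = 0.0487). Per 1000 reads of its neighbour mir-55, mir-54 gave 1479, 1701 and 1681 reads with DMSO and 1455, 1527 and 1455 with rotenone, and these did overlap. Of the miR-29 type pair, mir-49 passed, at 174, 169 and 160 CPM against 130, 156 and 129 CPM (log2 -0.28 ± 0.08, adjusted p = 0.0237), and mir-83 did not (-0.02 ± 0.091). mir-49 did not pass with size factors (adjusted p = 0.0697) or total counts (0.188). It also failed without DMSO replicate 1 or 2 or rotenone replicate 1 or 3 (adjusted p = 0.0771, 0.0749, 0.0969 and 0.108).

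Among stress-linked miRNAs mir-229, of a cluster with mir-64, mir-65 and mir-66 that responds to heat, was lower. It stood at 13236, 12468 and 13332 CPM with DMSO and at 11689, 11237 and 11977 CPM with rotenone, without overlap (log2 -0.16 ± 0.048, adjusted p = 0.0255). It missed the threshold with size factors (adjusted p = 0.116) and total counts (0.47). The neighbours mir-64 (0.00 ± 0.067), mir-65 (-0.03 ± 0.077) and mir-66 (-0.10 ± 0.06) did not pass. Per 1000 reads of mir-64, mir-229 gave 546, 548 and 633 reads with DMSO and 482, 493 and 564 with rotenone, and rotenone replicate 3 lay inside the DMSO range. Without rotenone replicate 2 mir-229 did not pass (-0.14, adjusted p = 0.0865). It also failed without DMSO replicate 1 or 3 or rotenone replicate 1 (adjusted p = 0.0768, 0.0987 and 0.0586). In the whole stress-associated list 1 of 10 passed, a share near the 11.9% of all hairpins, with a median of -0.10.

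The remaining hairpins that fell have no role that is firmly known. mir-245 had 4111, 4134 and 4095 CPM against 3505, 3550 and 3631 CPM, with little spread in either group (log2 -0.21 ± 0.06, adjusted p = 0.0237). It did not pass with total counts (adjusted p = 0.303), nor without DMSO replicate 1 or 2 or rotenone replicate 1 (0.0579, 0.0749 and 0.0713). mir-1830 had 150, 162 and 154 CPM against 136, 97.8 and 135 CPM (log2 -0.34 ± 0.095, adjusted p = 0.0214). Its lowest value is rotenone replicate 2, without which it did not pass (-0.20, adjusted p = 0.161). Nor did mir-1830 pass without DMSO replicate 2 (0.0807) or with total counts (0.186). mir-255 was scarce, at 8.01, 7.02 and 8.18 CPM against 5.17, 5.14 and 5.44 CPM (log2 -0.56 ± 0.19, adjusted p = 0.0474). mir-4936 had 13.4, 14.3 and 14.8 CPM against 8.45, 13.6 and 8.53 CPM (log2 -0.47 ± 0.15, adjusted p = 0.0431). Here rotenone replicate 2 was the high library, overlapping with DMSO, and without it the log2 fold change was -0.75 (adjusted p = 0.00115). mir-4936 did not pass with size factors (adjusted p = 0.064) or total counts (0.123). It also failed without DMSO replicate 1, 2 or 3 (0.066, 0.108 and 0.138) or rotenone replicate 1 or 3 (0.212 and 0.191). mir-8190 was near the floor of detection, with 13 reads over the DMSO and 2 over the rotenone libraries. Relative to library sizes scaled with TMM this is a ratio of 0.0992 (exact 95% interval 0.0109 to 0.438, counting error only). DMSO replicate 1 held most of these reads, at 1.23 CPM against 0.192 and 0.106 CPM, and without it the log2 fold change was -1.46 (adjusted p = 0.546). Without rotenone replicate 2 neither mir-255 (-0.54, adjusted p = 0.104) nor mir-8190 (-2.48, adjusted p = 0.135) passed. mir-255 did not depend on that library alone. It lost its call with each library of 6 hours left out (adjusted p = 0.0779 to 0.169), with size factors (0.0778) and with total counts (0.166).

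Both hairpins that rose, mir-238 and mir-59, did so by little, 1.13-fold and 1.15-fold. mir-238, whose loss shortens the life of the worm, stood at 8073, 7751 and 7996 CPM with DMSO and at 8514, 8686 and 9804 CPM with rotenone. The groups did not overlap, with rotenone replicate 3 highest, and the rise of 1.13-fold (log2 0.18 ± 0.059, adjusted p = 0.0431) passed under each scaling and without rotenone replicate 2 (0.20, adjusted p = 0.0471). It did not pass without DMSO replicate 1 (log2 0.19, adjusted p = 0.0731), 2 (0.16, 0.142) or 3 (0.18, 0.121), or without rotenone replicate 3 (0.11, 0.33). Its family members mir-239a (-0.10 ± 0.063) and mir-239b (-0.00 ± 0.096) did not pass. mir-59 had 1676, 1884 and 1799 CPM against 1865, 2349 and 1952 CPM (log2 0.20 ± 0.062, adjusted p = 0.0313). The groups overlapped, and without rotenone replicate 2, its highest library, mir-59 did not pass (0.09, adjusted p = 0.422). It also failed without DMSO replicate 1 (0.16, adjusted p = 0.174) or 3 (0.20, 0.0987).

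**Figure D3:**
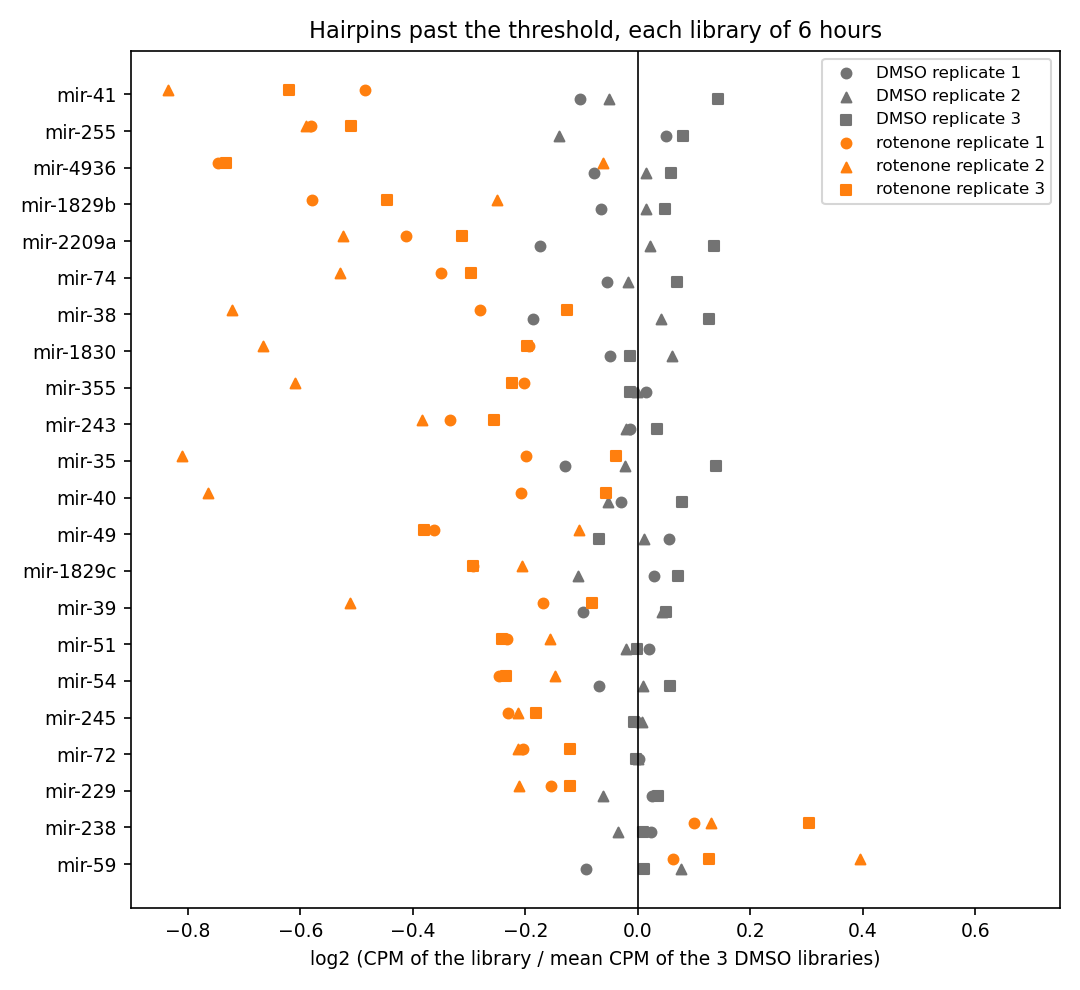
For each hairpin that passed the test, mir-8190 excepted, the log2 ratio of each library to the mean CPM of the DMSO libraries, with DMSO in grey, rotenone in orange and 1 symbol per replicate number. Orange lies left of grey for the hairpins that were lower, except that the groups overlap for mir-35, mir-38, mir-39 and mir-4936, and the orange triangle, rotenone replicate 2, is the outlying point for mir-35, mir-38, mir-39, mir-40, mir-355 and mir-1830 and lies at the grey points for mir-4936.

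**Figure D4:**
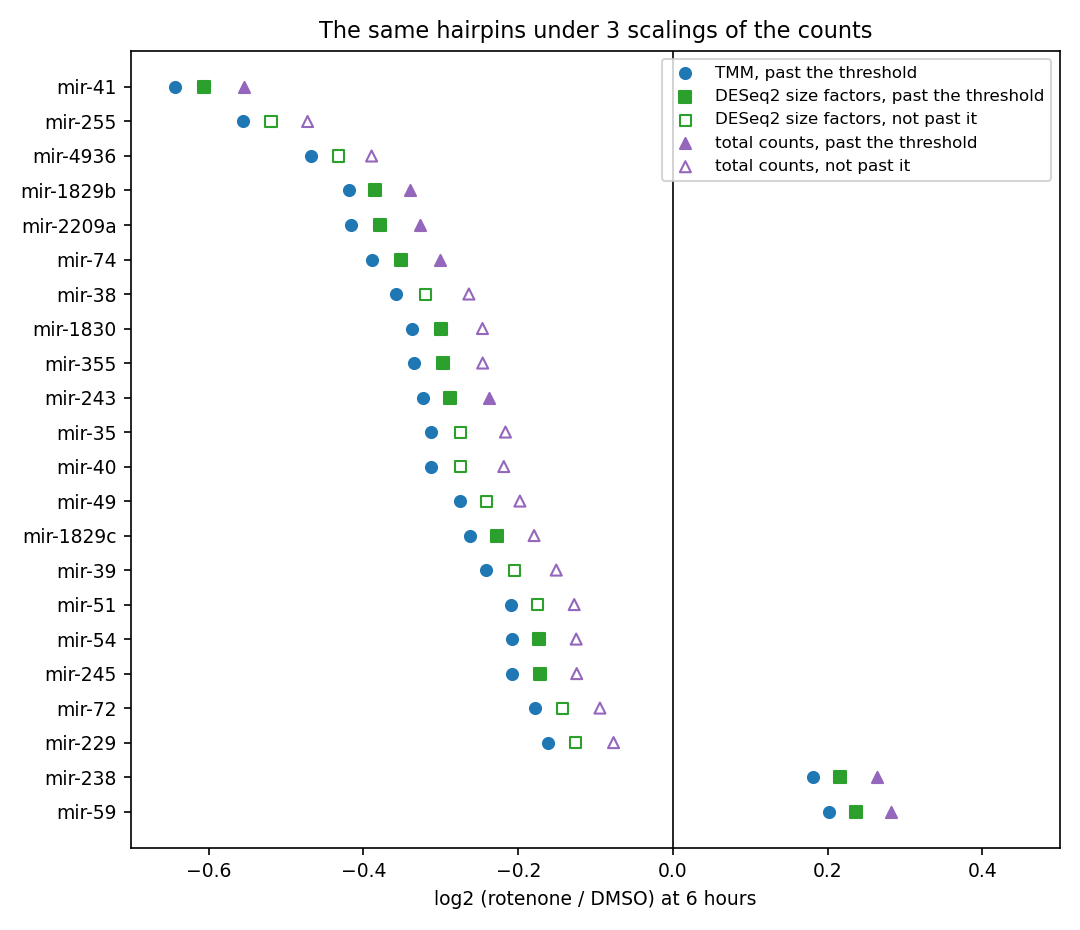
Log2 ratio of rotenone to DMSO at 6 hours for the same hairpins under TMM (circles), DESeq2 size factors (squares) and total counts (triangles), filled where the adjusted p was under 0.05. Values move to the right from TMM to total counts for each hairpin, no sign changes, and mir-41, mir-1829b, mir-2209a, mir-74, mir-243, mir-238 and mir-59 are filled under all 3.

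Just outside the threshold lay mir-228, a hairpin expressed in glia, at 41658, 43573 and 45180 CPM with DMSO and 34147, 36304 and 35435 CPM with rotenone (log2 -0.30 ± 0.10, adjusted p = 0.0541). Its groups did not overlap. mir-791, expressed in neurons that sense carbon dioxide, was next among those with a positive value, at 13.9, 13.1 and 15.1 CPM against 19.8, 15.8 and 19.0 CPM (log2 0.37 ± 0.14, adjusted p = 0.0843). With total counts mir-791 passed (0.46, adjusted p = 0.0428). mir-8199 (-0.73 ± 0.26), mir-4812 (-0.53 ± 0.20) and mir-789-1 (-0.23 ± 0.092) had adjusted p-values of 0.0628, 0.0843 and 0.102.

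In several families, of 2 to 8 members tested, no member passed, beside 11.9% of all hairpins. These are the let-7 family (0 of 8, median -0.06), which times larval development, lin-4 and mir-237 (0 of 2, -0.10), the bantam-like mir-58 family (0 of 5, -0.10), the mir-44 family (0 of 4, -0.04), the mir-2 family (0 of 4, -0.11), the mir-87 family (0 of 4, 0.07), the mir-46 and mir-75 families (0 of 2, -0.02 each), the mir-232 family (0 of 2, 0.04) and the mirtrons, hairpins made by splicing (0 of 3, -0.14). The medians of the let-7 and mir-44 families turned positive with total counts (0.02 and 0.04), as did that of all hairpins (0.03). Of 8 lifespan-associated miRNAs mir-238 was the one that passed with TMM, a share near that of all hairpins, and their median was -0.08. With total counts 2 of the 8 passed, both higher, and the median was 0.00. mir-34, which protects worms after DNA damage, had -0.12 ± 0.051 (adjusted p = 0.147). The most abundant hairpins were mir-82 of the mir-58 family (-0.10 ± 0.078) and mir-235 (-0.04 ± 0.095, and 0.04 with total counts), a miRNA that keeps progenitors at rest in starved larvae, and neither passed.

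Markers of single tissues did not pass either. The muscle miRNA mir-1 had 568 to 678 CPM with DMSO and 586 to 709 CPM with rotenone (0.04 ± 0.096), and mir-60 of the intestine 1703 to 2014 CPM and 1917 to 1997 CPM (0.09 ± 0.093). Of the 4 neuronal hairpins 0 passed: lsy-6 had 0.03 ± 0.088, mir-124 -0.09 ± 0.13, mir-790 -0.08 ± 0.11 and mir-791 the value above. Their summed level was 152 to 161 CPM with DMSO and 154 to 160 CPM with rotenone. The markers of oocytes and embryos are the mir-35 family, whose values stand above. In whole worms, fewer cells of a type and less of a miRNA per cell cannot be told apart.

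The next question was whether the effect at 6 hours was also that of later times. The effect of rotenone at 6 hours minus its mean effect at 1, 2, 3 and 5 days passed edgeR's test for 33 of 193 hairpins (17.1%), 5 with a higher value at 6 hours (2.59%) and 28 with a lower one (14.5%). The median difference over all hairpins was -0.06 with TMM, -0.02 with size factors and 0.07 with total counts. Of the 33, 14 had also passed at 6 hours and 19 had not, while 9 passed at 6 hours and not for the difference. With size factors 29 passed, 9 higher and 20 lower, and with total counts 28 passed, 20 higher and 8 lower, and 13 of the 33 passed with all 3 scalings. The lane term left 3, all higher. The 4 later comparisons called 32 (16.6%), 82 (42.5%), 24 (12.4%) and 2 (1.04%) hairpins.

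Several hairpins that fell at 6 hours did not fall at the later times. The log2 effect on mir-41 was -0.64 at 6 hours and -0.10, 0.14, 0.01 and -0.08 at 1, 2, 3 and 5 days (difference -0.64 ± 0.11, adjusted p = 4.45e-05). That on mir-74 was -0.39 and then -0.02, 0.11, 0.35 and 0.07 (difference -0.52 ± 0.072, adjusted p = 1.56e-06). That on mir-1829b was -0.42 and then -0.04, 0.22, 0.12 and 0.04 (difference -0.50 ± 0.071, adjusted p = 1.56e-06). For each of these the value at 6 hours was the lowest of the 5 times. The effect on mir-2209a changed direction, from -0.42 at 6 hours to 0.23, 0.42 and 0.31 at 1, 2 and 3 days, each of which passed its own test, and -0.00 at 5 days (difference -0.65 ± 0.094, adjusted p = 1.56e-06). mir-72 had -0.18 at 6 hours and 0.30, 0.05, 0.34 and -0.14 at 1, 2, 3 and 5 days, of which the values at 1 and 3 days passed (difference -0.32 ± 0.056, adjusted p = 7.17e-05). mir-243 had -0.32 at 6 hours and between -0.07 and 0.17 later (difference -0.37 ± 0.076, adjusted p = 0.000425). These 6 differences passed with all 3 scalings and with each library of 6 hours left out. Lane 8, however, held the DMSO group of 6 hours but the rotenone groups of 1 and 3 days, so the lanes of the treatments were not the same across times. With the lane term none of the 6 passed: the differences were -1.70 for mir-41, -1.13 for mir-74, -1.07 for mir-1829b, -1.09 for mir-2209a, 0.024 for mir-72 and -0.64 for mir-243 (adjusted p = 0.0998, 0.163, 0.163, 0.313, 0.994 and 0.481).

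mir-355 was different: its log2 effect was negative at every time, at -0.33, -0.18, -0.02, -0.22 and -0.15, and the difference did not pass (-0.19 ± 0.08, adjusted p = 0.0918). For mir-238 the difference did not pass either (0.15 ± 0.066, adjusted p = 0.112), with effects of 0.18 at 6 hours and 0.11, 0.16, -0.09 and -0.05 later.

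The largest difference in the other direction was mir-244. Its level at 6 hours was 2572, 2910 and 2783 CPM with DMSO and 3018, 3478 and 3000 CPM with rotenone, which did not pass with TMM (log2 0.20 ± 0.082, adjusted p = 0.126) but did with size factors and total counts (adjusted p = 0.0487 and 0.026). At 1, 2 and 3 days it fell with rotenone (-0.47, -0.93 and -0.58), and at 5 days it stood at -0.13 (difference 0.73 ± 0.092, adjusted p = 4.56e-07). mir-791 had 0.37 at 6 hours and -0.46 and -0.60 at 1 and 3 days, where it passed (difference 0.63 ± 0.16, adjusted p = 0.00597). Rotenone ran on lane 8 at 1 and 3 days. At 2 days, where mir-244 was lowest (-0.93), rotenone ran on lane 2 and DMSO on lane 1. With the lane term the difference of mir-791 was 0.31 (adjusted p = 0.90) and that of mir-244 was 2.48 (adjusted p = 0.0146).

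In the let-7 family 6 of 8 members had an effect at 6 hours that was lower than later, beside 14.5% of all hairpins. let-7 itself had 9549, 10040 and 9946 CPM with DMSO and 8789, 10680 and 9184 CPM with rotenone at 6 hours, groups that overlapped (log2 -0.04 ± 0.055, and 0.04 with total counts). It rose at 1 and 2 days (0.37 and 0.49), so that the difference was -0.29 ± 0.062 (adjusted p = 0.00081). The differences of mir-48, mir-84, mir-241, mir-794 and mir-795 were -0.17 to -0.30. With size factors let-7 and mir-795 of the family passed, and with total counts none of these 6 did (adjusted p of let-7 0.0718). mir-34 (-0.22 ± 0.057) and mir-80 (-0.23 ± 0.06), a regulator of the response to dietary restriction, also had a lower effect at 6 hours, and neither passed with total counts.

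**Figure D5:**
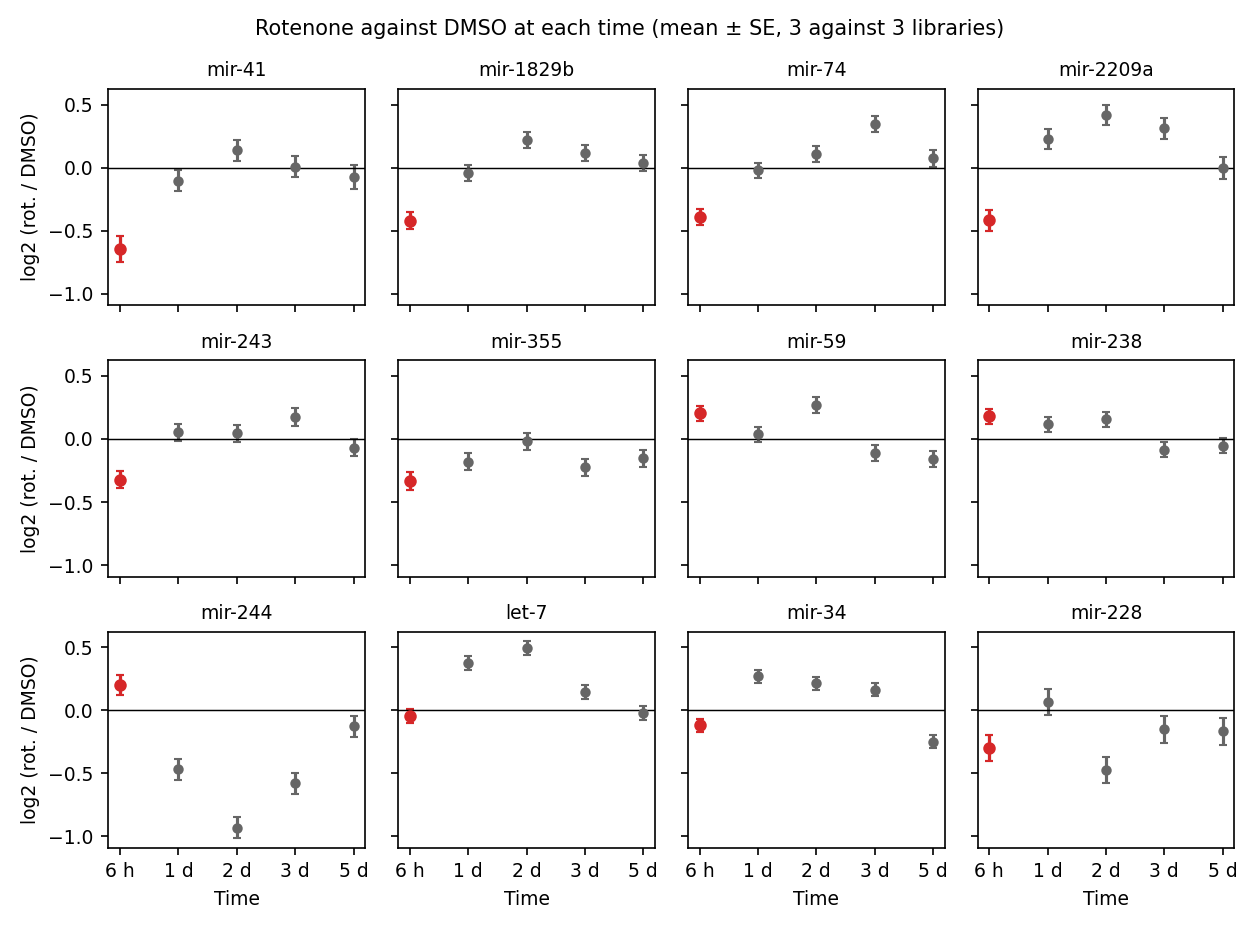
Log2 ratio of rotenone to DMSO (mean ± SE, 3 against 3 libraries) at 6 hours, in red, and at 1, 2, 3 and 5 days, in grey, for 12 hairpins. The SE is from the fit of all 36 libraries. mir-41, mir-1829b, mir-74, mir-2209a and mir-243 are lowest at 6 hours, mir-355 is at or below 0 throughout, and mir-244 is above 0 at 6 hours and below it at 1, 2 and 3 days.

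Against 1 day alone, the nearest later time, the effect at 6 hours differed for 31 hairpins (16.1%), 4 higher (2.07%) and 27 lower (14%), where total counts called 13 higher and 5 lower. For the hairpins below, DMSO means differed more between 6 hours and 1 day than between the treatments at 6 hours. Mean mir-41 was 32.3 ± 2.94 CPM (SD, n = 3) with DMSO and 20.7 ± 2.5 with rotenone at 6 hours, and 141 ± 7.37 and 131 ± 10.1 CPM at 1 day. Mean mir-35 was 8484 ± 797 and 6829 ± 1778 CPM at 6 hours, and 42082 ± 1963 and 39124 ± 1083 CPM at 1 day. Both family members were thus several times higher at 1 day in either treatment. mir-74 went from 325 ± 14.5 and 248 ± 20.7 CPM to 1031 ± 62.2 and 1015 ± 43.9 CPM, and mir-1829b from 494 ± 19.7 and 369 ± 42.7 CPM to 924 ± 28.2 and 898 ± 52.7 CPM. mir-243 was the reverse, at 879 ± 18.6 and 702 ± 31.4 CPM at 6 hours and 498 ± 21.1 and 517 ± 19.8 CPM at 1 day. Among the hairpins given here, which are part of the 21 lower with rotenone at 6 hours, mir-243 alone had a lower DMSO mean at 1 day. Over all 193 hairpins, DMSO at 1 day against 6 hours passed edgeR's test for 59 higher and 67 lower.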

How the data were processed

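Per the labels' protocols, libraries were made from total RNA of whole worms with the TruSeq small RNA kit. The authors deposited raw counts per miRNA hairpin, with arms not separated, in 1 table of 250 hairpins and 36 libraries. The tools were SAMtools 1.3.1-9, BWA 0.7.12-r1039, Trimmomatic 0.36 and bcl2fastq 1.8.4, per the submitters' processing notes. Not given in the sources used here are the genome build, the annotation and how multiply matching reads were assigned. Therefore no coordinates or sequences are printed and counts of near-identical hairpins are uncertain. Neighbours come from the RefSeq annotation of WBcel235, which named 235 of the hairpins.

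Groups came from the labels. In R 4.3.3, filterByExpr at a minimum count of 10 kept 193 hairpins, and the 57 left out held 0.000732% of counts. All 36 libraries were scaled with TMM and fitted in edgeR 4.0.16 with 1 mean for each group (24 residual and 12.6 prior degrees of freedom, common biological coefficient of variation 0.0678). Contrasts were tested with the quasi-likelihood test at a Benjamini-Hochberg adjusted p of 0.05, and CPM values use the TMM factors. A level of 3 counts is 0.302 to 0.403 CPM in the DMSO and 0.201 to 0.253 CPM in the rotenone libraries of 6 hours. Intervals and these floors cover counting error only. Chi-square per degree of freedom between libraries of a group was 94.1 to 366, above sampling noise, so each was counted as 1 sample. This does not show that they came from separate cultures. Levels are not per length, so the order of abundance and ratios between hairpins are of read counts only.

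Named with values per library were all hairpins past the threshold at 6 hours. Named more briefly were those past it for the difference from later times, the 5 nearest outside it, the 3 most abundant, tissue markers and listed family members. mir-36, mir-64, mir-234 and others named beside a result were added as members or neighbours of these. The members and lists were chosen with earlier results of these data known. On simulated counts with known changes, the TMM fit gave a larger share of false calls than the nominal rate. Those changes went up or down at random, unlike the mostly lower calls at 6 hours, for which the share was not estimated. Alternatives were 2 other scalings, no filter, DESeq2 1.42.0, a replicate block, the 6 libraries alone, a lane term, and each library of 6 hours left out. The bare names mir-58, mir-1834 and mir-356 matched no row, though mir-356a and mir-356b had rows and were tested. Of the 7 names listed for the mir-58 family, 5 matched a row. mir-1019, mir-2209b, mir-2209c and mir-2211 fell below the filter.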

Additional observations from a re-analysis of the deposited data

Results flagged for a closer look

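The effect of rotenone at 6 hours differed from its mean effect at 1, 2, 3 and 5 days for 33 hairpins, by edgeR's test of the difference itself. Values are log2 differences, 6 hours minus the later mean. They share the libraries of 6 hours, so they are not independent of the calls at 6 hours.

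The difference was positive for mir-244 (0.73), mir-791 (0.63), mir-232 (0.33), mir-231 (0.29) and mir-59 (0.19). mir-231 had an effect of 0.02 at 6 hours and -0.27 later, and mir-232 of 0.19 and -0.14. Without rotenone replicate 2 the differences of mir-59 (0.08, adjusted p = 0.443) and mir-232 (0.28, 0.0923) did not pass.

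Among hairpins that had fallen at 6 hours the difference was negative for mir-2209a (-0.65), mir-41 (-0.64), mir-4936 (-0.52), mir-74 (-0.52), mir-1829b (-0.50), mir-38 (-0.43), mir-243 (-0.37), mir-1830 (-0.35), mir-39 (-0.34), mir-1829c (-0.32), mir-72 (-0.32), mir-229 (-0.22) and mir-245 (-0.20). Without rotenone replicate 2, mir-38 (-0.27, adjusted p = 0.137), mir-1830 (-0.21, 0.159) and mir-245 (-0.20, 0.0514) did not pass.

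Among hairpins that had not passed at 6 hours it was negative for mir-354 (-1.10), a scarce hairpin of 1.87 to 2.82 CPM, mir-8198 (-0.71), mir-359 (-0.38), mir-1829a (-0.36), mir-357 (-0.34), mir-240 (-0.32), mir-241 (-0.30), let-7 (-0.29), mir-795 (-0.27), mir-794 (-0.23), mir-80 (-0.23), mir-34 (-0.22), mir-48 (-0.19), mir-250 (-0.18) and mir-84 (-0.17). mir-240, whose neighbour mir-786 sets the rhythm of defecation, had -0.12 at 6 hours and 0.20 later. For let-7 the values were -0.04 and 0.24, and for mir-357 -0.12 and 0.22. Without rotenone replicate 2 mir-250 did not pass (-0.17, adjusted p = 0.0923). The lanes of the treatments differed between times, and with a lane term mir-244 was the one of these 33 that passed.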

How the results depend on the processing

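The 23 calls at 6 hours became 13 with size factors, 10 with total counts, 8 with no filter, 0 of 174 hairpins with only the 6 libraries and 3 with a lane term, and were 10 to 17 with 1 library left out. Whether replicate numbers pair the libraries could not be decided, since same-numbered deviations correlated at 0.208, -0.023 and 0.381. Rotenone replicates 1 and 3, but not 2, correlated best with their own number. The replicate block gave 23 calls, 22 of them shared, mir-255 lost and mir-228 gained. DESeq2 gave 20, 17 of them shared. The 33 differences from later times became 10 with no filter and 3, all higher, with a lane term, and were 22 to 36 with 1 library left out. The 31 differences from 1 day became 19 with size factors, 18 with total counts, 18 with no filter, and were 25 to 33 with 1 library left out. The 42 hairpins without overlap became 52 to 67, which fewer libraries allow by construction. All 23 kept their sign under the scalings, no filter, the block, DESeq2 and each left-out library, 22 in the fit of 6 libraries and 19 with the lane term. The lane term reversed mir-72 (0.048), mir-245 (0.46), mir-59 (-0.080), mir-255 (0.24), mir-228 (1.16), mir-235 (0.076), mir-1 (-0.012), mir-60 (-0.064), mir-124 (0.55) and mir-790 (1.19), and the differences of mir-72 (0.024), mir-240 (0.016), mir-359 (0.067), mir-245 (0.79) and mir-59 (-0.23). Values that had not passed reversed near 0: mir-82 (0.0065), mir-235 (0.061), mir-124 (0.0057) and mir-790 (0.0093) with no filter, mir-235 (0.041) and mir-790 (0.0011) with total counts, and mir-235 (0.036) with 6 libraries. With 1 library left out, mir-82 ran from -0.20 to 0.0032, mir-235 from -0.14 to 0.029, mir-1 from -0.030 to 0.12, lsy-6 from -0.0089 to 0.058 and mir-790 from -0.16 to 0.032. The causes were not tested. Depth limits hairpins under 10 CPM, whose median SE was 0.37.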
